A study of Sorghum bicolor with 6 samples.

Results

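Phenylalanine ammonia-lyase (PAL) and cinnamate 4-hydroxylase (C4H) catalyse the entry steps of phenylpropanoid metabolism. The 6 genes described here are 5 PAL gene models with neighbouring identifiers on chromosome 4 (Sobic.004G220300.v3.2, Sobic.004G220400.v3.2, Sobic.004G220500.v3.2, Sobic.004G220600.v3.2 and Sobic.004G220700.v3.2) and the C4H gene Sobic.002G126600.v3.2. The ending is left off below. They were taken by identifier from the 34129 gene models of the deposited files, and all 6 passed the filter on low counts that left 20820 genes for testing. No other gene model lies between the 5 PAL copies in the identifier order of the files. The names PAL and C4H follow published sorghum naming and could not be checked, since the sources used here hold no description of these gene models.

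Leaf RNA was sequenced from Sorghum bicolor plants 4 weeks old, with 3 libraries from plants that overexpress SbGhd7 (SbGhd7 OE) and 3 from plants carrying an empty vector. SbGhd7 is a CCT-domain repressor of flowering, and the study asked which leaf transcripts differ when it is overexpressed. The labels used here do not give the promoter of the transgene, the transformation events, how many plants made up a library, or the time of day of harvest. If the libraries of a group did not come from separate plants, the p-values below measure technical spread only.

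PAL removes ammonia from phenylalanine and gives cinnamic acid. C4H, a membrane-bound cytochrome P450, adds a hydroxyl group to cinnamic acid and gives p-coumaric acid, from which plants build lignin, flavonoids and wall-bound hydroxycinnamates. PAL is encoded by a small gene family in plants, and many of its members respond to wounding, infection and light. In grasses some PAL proteins also act on tyrosine, which leads to p-coumaric acid without C4H.

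Library totals lay between 27844391 and 35830080 deposited counts. SbGhd7 (Sobic.006G004400) had 17295, 10339 and 20367 counts in SbGhd7 OE replicates 1, 2 and 3, and 35, 60 and 35 counts in empty vector replicates 1, 2 and 3, so each library matched its label. The leaf identity was checked with 5 genes of C4 photosynthesis and Rubisco, whose summed level was between 33021 and 43225 CPM (counts scaled to a library size of 1e+06) in SbGhd7 OE and between 17274 and 19038 CPM in empty vector. Of these 5, PEPC, PPDK and CA1 rose, NADP-ME fell and RBCS did not pass the test described next. The groups differed widely. In edgeR's quasi-likelihood test, with a threshold of 0.05 on the adjusted p, 53.3% of the 20820 tested genes were called, with 28.0% higher and 25.3% lower in SbGhd7 OE.

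Of the 6 genes, C4H and 4 of the 5 PAL copies rose in SbGhd7 OE leaves, and the PAL copy Sobic.004G220300 did not pass the test. None fell. The rises were between 6.36-fold and 15.2-fold. They are set against the 28.0% of all tested genes called higher and the 16.2% called higher with a fold change of at least 2. In the same 5 genes every SbGhd7 OE library lay above every empty vector library, as it did for 32.4% of all tested genes. CPM values here are scaled by TMM, a normalisation for library composition. The summed levels of the leaf and secondary wall markers are the exception, being scaled by library size alone. Fold changes are for SbGhd7 OE over empty vector, and unless stated otherwise adjusted p-values come from edgeR over all tested genes.

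**Figure D1:**
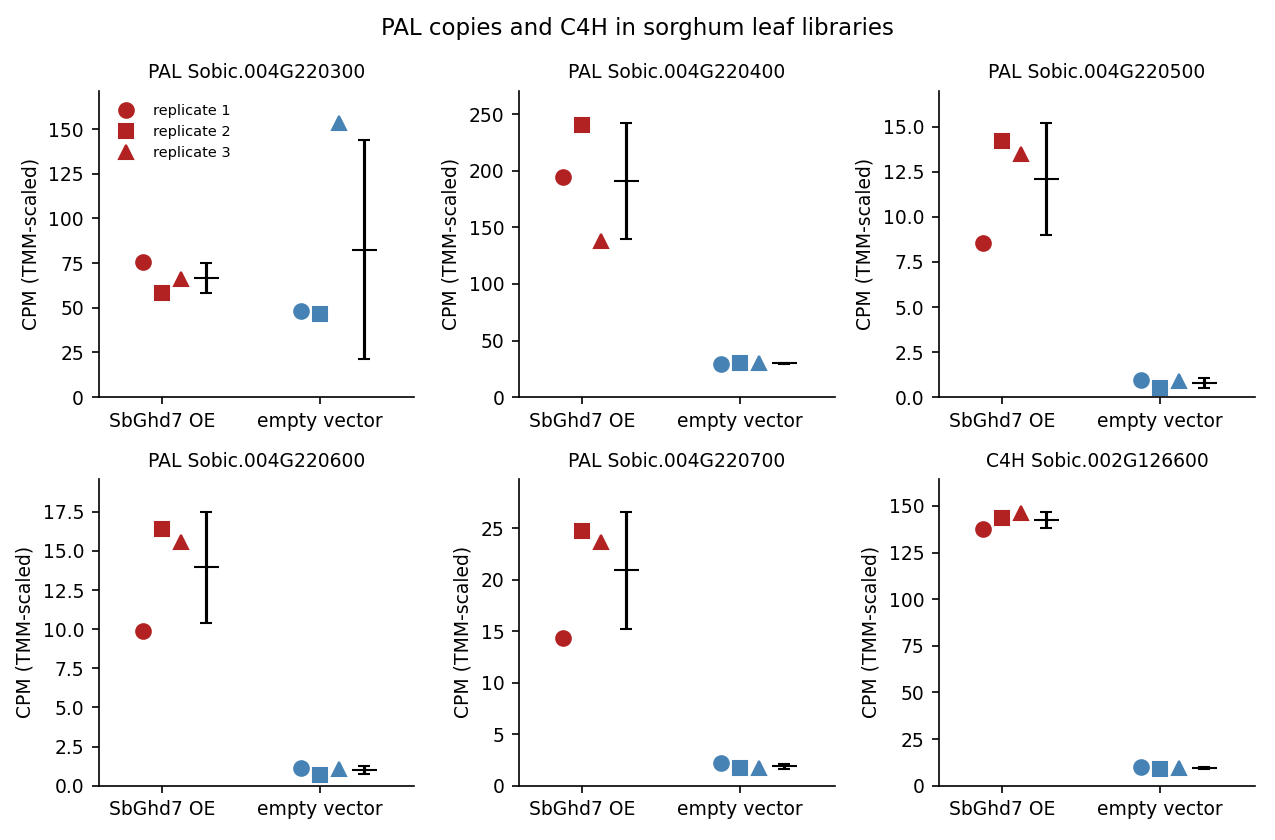
Level of each PAL copy and of C4H in TMM-scaled CPM (vertical axes, each from 0) for SbGhd7 OE (red) and empty vector (blue), with 1 point per library, its shape giving the replicate number, and the mean ± SD in black (n = 3 each). In 5 panels every red point lies above every blue one, and in the panel of Sobic.004G220300 empty vector replicate 3, at 153.2 CPM, is the highest of the 6 libraries.

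C4H had the smallest p-value of all 20820 genes tested. Its levels were 137.7, 143.5 and 146.2 CPM in SbGhd7 OE and 9.88, 8.71 and 9.72 CPM in empty vector. The 3 libraries of each group lay close together, and the groups were far apart. The means were 142.5 ± 4.38 CPM in SbGhd7 OE and 9.44 ± 0.636 CPM in empty vector (SD, n = 3 each). This is a log2 fold change of 3.92 (SE 0.114, edgeR adjusted p = 2.0e-06), or 15.1-fold with a 95% interval of 12.6 to 18.1. An increase at least as large was fitted for 2.17% of the tested genes, so the rank of C4H by p also reflects its small spread between libraries.

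Among the PAL copies that rose, Sobic.004G220400 had the most counts. It stood at 194.1, 240.2 and 138.3 CPM in SbGhd7 OE and at 29.6, 30.04 and 30.4 CPM in empty vector. The control values were nearly equal, whereas the highest SbGhd7 OE library was 1.74 times the lowest. The log2 fold change was 2.67 (SE 0.197, edgeR adjusted p = 2.7e-05), or 6.36-fold with a 95% interval of 4.65 to 8.70.

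The next 3 copies by number were low in the controls and moved together. Sobic.004G220500 had 230, 437 and 375 counts in SbGhd7 OE and 30, 15 and 34 counts in empty vector. In CPM these were 8.55, 14.2 and 13.5 in SbGhd7 OE, against 0.959, 0.486 and 0.920 in empty vector. Its rise was 3.93 on the log2 scale (SE 0.323, edgeR adjusted p = 4.2e-05), or 15.2-fold with a wide 95% interval of 9.11 to 25.4.

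Sobic.004G220600 had 266, 504 and 432 counts in SbGhd7 OE and 36, 21 and 40 counts in empty vector. Its log2 fold change was 3.84 (SE 0.292, edgeR adjusted p = 2.9e-05), or 14.3-fold. Sobic.004G220700 had 387, 760 and 656 counts in SbGhd7 OE and 68, 54 and 62 counts in empty vector. It rose by 3.49 on the log2 scale (SE 0.251, edgeR adjusted p = 2.3e-05), or 11.2-fold. In all 3 copies SbGhd7 OE replicate 1 was the lowest of its group, at between 0.595 and 0.618 times the mean of the other two. Sobic.004G220400 had a different order in the same libraries, with replicate 3 the lowest, at 0.637 times the mean of the other two.

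The values of Sobic.004G220500 and Sobic.004G220600 cannot be taken as separate measurements. The count of Sobic.004G220500 was 0.865, 0.867 and 0.868 of that of Sobic.004G220600 in the 3 SbGhd7 OE libraries. The SD of this ratio was 0.0029 on the log2 scale, while independent counting error at these counts would give 0.110. In the empty vector libraries, with at most 40 counts, the ratio was 0.833, 0.714 and 0.850. Sobic.004G220700 followed them less closely. In SbGhd7 OE Sobic.004G220500 had 0.594, 0.575 and 0.572 of its count, with an SD of 0.0303 on the log2 scale where independent counting error would give 0.101. Related copies can share reads, and how the authors' counting divided such reads is not given in the sources used here. With the 3 copies summed as 1 gene the log2 fold change was 3.69 (SE 0.245, edgeR adjusted p = 1.8e-05), a sum chosen after the values were seen.

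Sobic.004G220300 was the copy that did not follow the others. Its levels were 75.6, 58.5 and 66.1 CPM in SbGhd7 OE and 48.03, 46.4 and 153.2 CPM in empty vector. Empty vector replicates 1 and 2 were the lowest of the 6 libraries and replicate 3 was the highest, so the groups overlapped. The means were 66.7 ± 8.60 CPM in SbGhd7 OE and 82.5 ± 61.2 CPM in empty vector (SD, n = 3 each), with a log2 fold change of -0.31 (SE 0.475, edgeR adjusted p = 0.61). The 95% interval ran from -1.45 to 0.83, so changes of either sign within it are not distinguished. It does not reach the lowest bound of the other copies, which was 2.22 for Sobic.004G220400.

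The direction for Sobic.004G220300 rested on empty vector replicate 3. Without that library the log2 fold change was 0.49 (SE 0.139, edgeR adjusted p = 0.024), or 1.40-fold higher in SbGhd7 OE. The library was singled out for its high value in this gene, so that value describes the dependence on it and is no evidence of a rise. In that fit 25.5% of 21399 tested genes were called higher. An increase at least as large as that of Sobic.004G220300 was fitted for 31.7% of them, and one at least as large as that of Sobic.004G220400 for 6.11%. Leaving out any of the other 5 libraries gave values between -0.61 and -0.22.

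**Figure D2:**
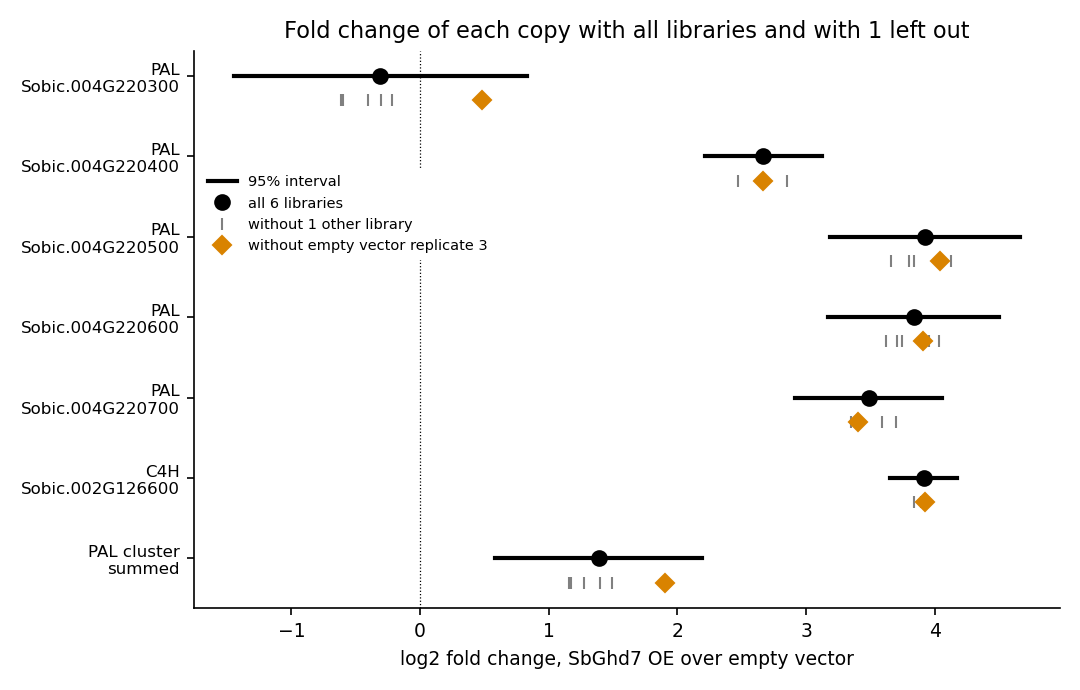
Log2 fold change of SbGhd7 OE over empty vector (horizontal axis) for each gene and for the summed PAL cluster, from all 6 libraries (black point with its 95% interval), without empty vector replicate 3 (orange diamond) and without each other library (grey ticks). Sobic.004G220300 changes side of 0 without empty vector replicate 3, from -0.31 to 0.49, and the other 5 genes stay at 2.47 or more whichever library is left out.

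The high value of empty vector replicate 3 in Sobic.004G220300 was not shared by the other PAL copies. In that library Sobic.004G220300 was at 3.25 times the mean of empty vector replicates 1 and 2. The ratio was 1.02 for Sobic.004G220400, 1.27 for Sobic.004G220500, 1.18 for Sobic.004G220600 and 0.856 for Sobic.004G220700. Thus 1 of the 5 copies was at least 2-fold above the other controls, and 4 were not. C4H had a ratio of 1.05. Of 20676 genes with a control value to compare, 643 (3.11%) were at least 2-fold higher in empty vector replicate 3, and 1.04% had a ratio at least as high as Sobic.004G220300. Corresponding shares for each of the other 5 libraries against its own group lay between 1.51% and 4.55%, a range that holds the share of empty vector replicate 3. These ratios compare 1 library with 2 and carry no test. Empty vector replicates 1 and 2 were also the most alike of any pair within a group, so they may count for less than 2 separate controls.

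**Figure D3:**
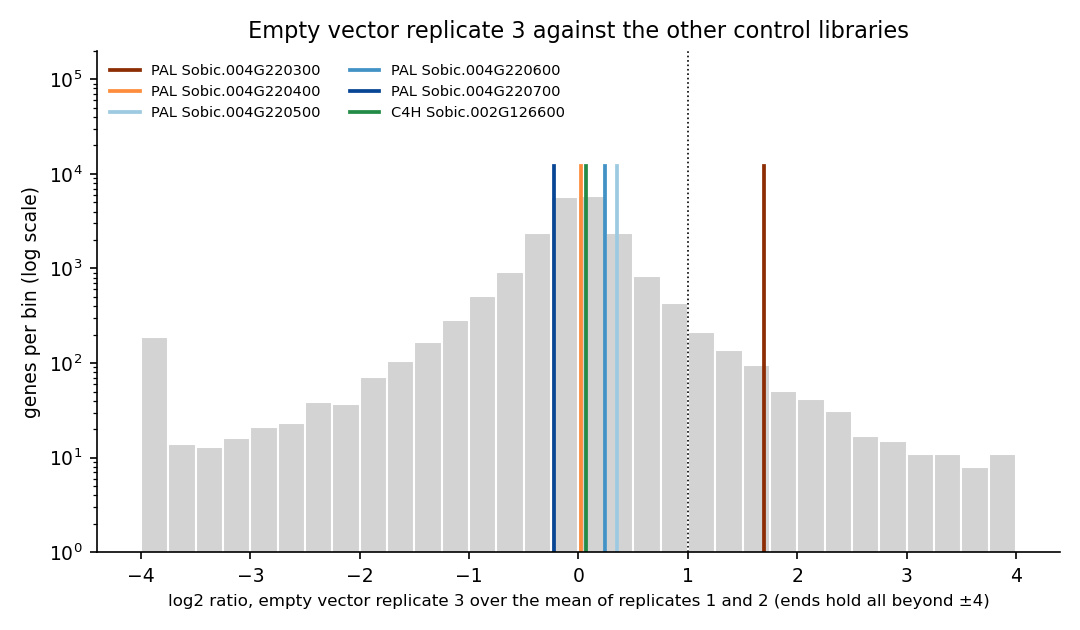
Distribution over 20676 genes of the log2 ratio of empty vector replicate 3 to the mean of empty vector replicates 1 and 2 (horizontal axis, with the number of genes per bin on a log scale), with coloured lines for the 5 PAL copies and C4H and a dotted line at 2-fold. The line of Sobic.004G220300 stands to the right of the 2-fold line, and those of the other 5 genes stand around 0.

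The makeup of the PAL counts by copy did not overlap between the groups. Sobic.004G220300 held 25.0%, 16.5% and 25.7% of the summed PAL counts in SbGhd7 OE and 58.6%, 58.5% and 81.8% in empty vector. It was the leading copy in each control library. Sobic.004G220400 held 64.2%, 67.8% and 53.8% in SbGhd7 OE and 36.1%, 37.9% and 16.2% in empty vector, and it led in each SbGhd7 OE library. The other 3 copies together made up the rest, with mean shares of 4.03%, 4.65% and 6.98% in SbGhd7 OE and 0.758%, 0.947% and 1.92% in empty vector. For each of the 5 shares the exact two-sided permutation test gave p = 0.1 (adjusted p = 0.1 over the 5 copies), the smallest value that 3 against 3 libraries allow. The shares of a library add up to the whole, so the 5 tests are not independent. They restate the copy levels given above and add no support to them. Shares of counts are not corrected for the length of the gene models, so they show the shift between groups and not which copy has more transcripts.

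**Figure D4:**
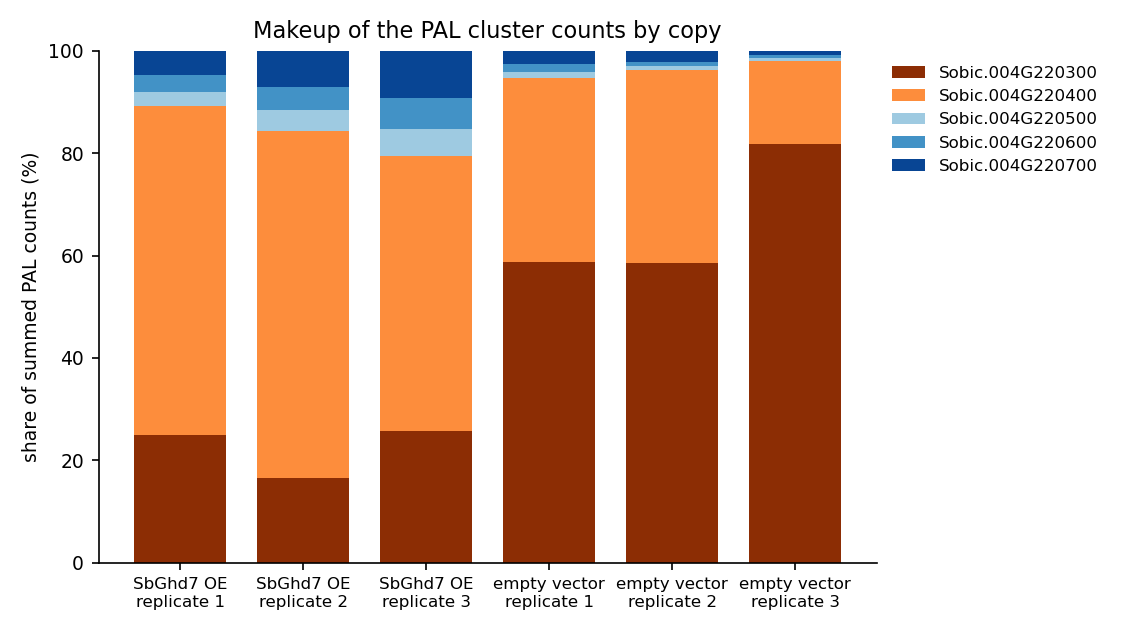
Share of the summed PAL counts held by each of the 5 copies (vertical axis, percent) in each library, with SbGhd7 OE on the left and empty vector on the right. Sobic.004G220300 (dark brown) takes between 16.5% and 25.7% in SbGhd7 OE and between 58.5% and 81.8% in empty vector.

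Summed over the 5 copies, PAL rose with a smaller fold change than each of the 4 copies that passed the test singly. The sum was 302.7, 354.0 and 257.1 CPM in SbGhd7 OE and 81.9, 79.3 and 187.2 CPM in empty vector. All 3 SbGhd7 OE libraries were above the controls, but empty vector replicate 3 came closest to them. Fitted as 1 gene, the sum had a log2 fold change of 1.39 (SE 0.344, edgeR adjusted p = 0.011), or 2.62-fold with a 95% interval of 1.50 to 4.58. The call was lost without SbGhd7 OE replicate 2 (1.27, edgeR adjusted p = 0.055), and without empty vector replicate 3 the value was 1.91 (edgeR adjusted p = 2.1e-04). A sum of the 4 copies other than Sobic.004G220300, chosen after the values were seen, had a log2 fold change of 2.82 (SE 0.173, edgeR adjusted p = 1.2e-05).

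C4H had a larger fold change than the PAL sum, and their 95% intervals did not overlap. Singly, the PAL copies Sobic.004G220500 (3.93) and Sobic.004G220600 (3.84) had log2 fold changes close to that of C4H (3.92), and the other copies lay lower. The C4H count was 0.455, 0.405 and 0.569 of the summed PAL count in SbGhd7 OE and 0.121, 0.110 and 0.0519 in empty vector. The groups did not overlap (exact two-sided permutation p = 0.1, the smallest possible). These are ratios of counts and do not compare transcript numbers of the 2 enzymes.

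Genes of later steps were looked at from a list of 6, all of which rose, against 28.0% of all tested genes called higher. Their names also follow published sorghum naming and could not be checked. The median log2 fold change was 2.59 over the list and -0.0042 over all tested genes. The ligase 4CL (Sobic.004G062500), which activates p-coumaric acid as its coenzyme A ester, had 116.4, 56.8 and 102.7 CPM in SbGhd7 OE and 46.5, 50.2 and 39.4 CPM in empty vector. SbGhd7 OE replicate 2 came close to the controls, and the log2 fold change was 1.02 (SE 0.250, edgeR adjusted p = 0.010). The shikimate transferase HCT (Sobic.004G212300) had 58.5, 41.4 and 46.0 CPM in SbGhd7 OE and 7.16, 6.51 and 6.66 CPM in empty vector, a log2 fold change of 2.84 (edgeR adjusted p = 8.8e-06). The hydroxylase C3H (Sobic.009G181800) rose 5.45-fold, the methyltransferase CCoAOMT (Sobic.010G052200) 2.25-fold, the reductase CCR (Sobic.007G141200) 6.66-fold and the alcohol dehydrogenase CAD (Sobic.004G071000) 7.52-fold, with edgeR adjusted p-values of at most 2.6e-04. None of the 6 had an interval reaching that of C4H except CAD, whose upper bound of 3.68 lay just above the lower bound of C4H at 3.65. Other genes of the pathway were not analysed here.

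**Figure D5:**
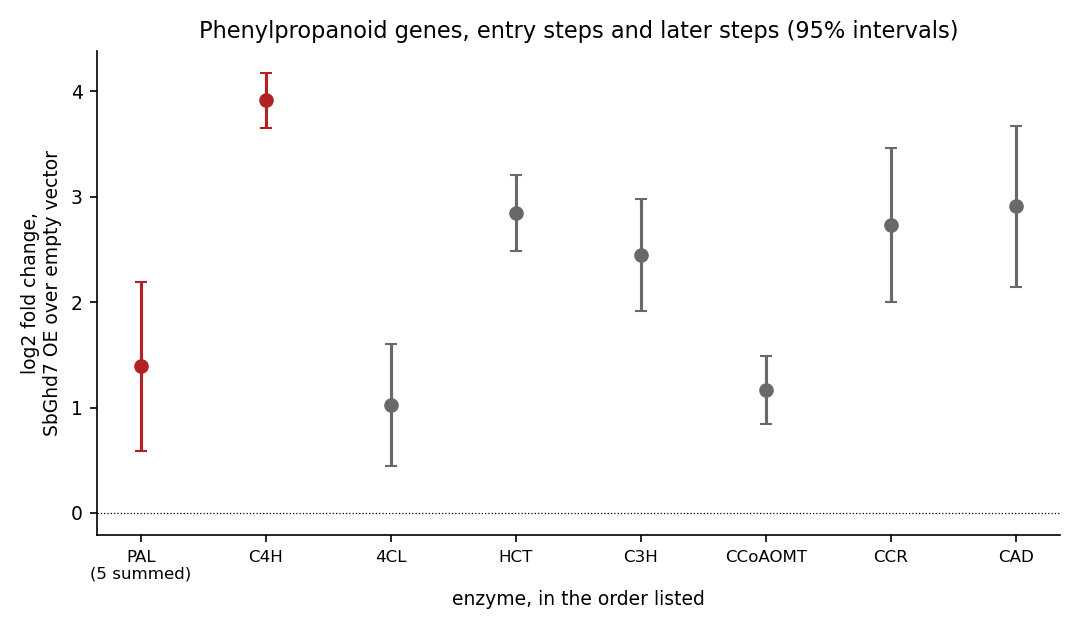
Log2 fold change of SbGhd7 OE over empty vector (vertical axis) with 95% intervals for the summed PAL cluster and C4H (red) and for 6 genes of later steps (grey). All 8 intervals lie above 0, and among the 8 values shown C4H has the highest, 3.92. Single PAL copies are not shown, and Sobic.004G220500 had 3.93.

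Phenylpropanoid genes are active in cells that form lignified walls, so gene models meant as markers of secondary walls were read beside these results. They are 3 gene models taken as cellulose synthase genes (Sobic.001G224300, Sobic.002G118700 and Sobic.003G296400), whose names could not be checked either. Whether each of them, Sobic.002G118700 above all, is of the secondary wall type and not of the primary wall type could not be checked. Their summed level, scaled by library size alone, was between 28.7 and 32.0 CPM in SbGhd7 OE and between 10.1 and 11.6 CPM in empty vector. Of the 2 that could be tested, Sobic.002G118700 rose with a log2 fold change of 1.50 (edgeR adjusted p = 6.1e-05). Sobic.003G296400 had a log2 fold change of 2.61 (edgeR adjusted p = 0.011). Its counts were 17, 11 and 41 in SbGhd7 OE and 4, 4 and 5 in empty vector. It passed the filter only through the SbGhd7 OE libraries, so its call is no support for a rise of the markers. Almost all of the sum came from Sobic.002G118700, and the others were near the floor. The sum is thus in effect the level of 1 gene, and these values do not show that the genes mark secondary walls here. Sobic.001G224300 had 7, 32 and 49 counts in SbGhd7 OE and 2, 5 and 0 counts in empty vector, and fell below the filter. The part of such cells in the rise of C4H and the PAL copies was not tested, and in whole leaf tissue more cells of a type and more RNA per cell cannot be told apart.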

How the data were processed

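The authors deposited 1 table per library with a whole-number value per gene model, used here as an estimated count, with no scaling between libraries. Per the submitters' processing notes, HISAT2 2.2.1, StringTie 2.2.1 and DESeq2 2.11.40.7 were used. The roles of these tools, the genome build, strand setting and any filter were not given in the sources used here. Per the labels' protocols, TRIzol RNA was freed of DNA with DNase I before NEBNext Ultra library preparation. The value 2 was 2.91 to 3.57 times as frequent as the value 1 in each library, so 1 count may not be 1 fragment, and counting errors hold only if it is. Without known strand, overlapping genes cannot be told apart. No sequence, position or gene length was available for these identifiers, and PAL genes outside the cluster were not analysed here.

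From 26611 genes with a count, filterByExpr kept 20820, which were normalised by TMM and tested with edgeR 4.0.16's robust quasi-likelihood F-test (R 4.3.3), on group alone, with Benjamini-Hochberg adjusted p-values and a threshold of 0.05. The SE is the absolute log2 fold change divided by the square root of F, and intervals use the t distribution of that fit. The procedure was tested on simulated data with far fewer changed genes than were called here. That run therefore does not show the error rates in these data. DESeq2 1.42.0 and limma-voom (3.58.1) were alternatives. Groups and replicate numbers came from the titles. Empty vector replicates 1 and 2 were the most alike of any pair within a group (median chi-square over genes 1.98, against 4.07 to 7.56 for other pairs), and both were kept. The genes, lists and tests were chosen with earlier results of these data known. The text names the 6 genes, SbGhd7, the later pathway genes, the markers, and the genes most alike in pattern to C4H and to the PAL sum. Of those most alike only the closest of each is named, since no source used here names them.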

Additional observations from a re-analysis of the deposited data

How the results depend on the processing

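C4H and the 4 PAL copies that rose kept their direction and their call under every alternative, with log2 fold changes of 3.84 to 3.94 for C4H, 2.47 to 2.85 for Sobic.004G220400, 3.66 to 4.13 for Sobic.004G220500, 3.62 to 4.03 for Sobic.004G220600 and 3.35 to 3.70 for Sobic.004G220700. Sobic.004G220300 ran from -0.61 to 0.49 when 1 library was left out, turning and passing without empty vector replicate 3, and stayed between -0.61 and -0.06 under the other settings, without a call. The PAL sum ran from 1.16 to 1.91 when 1 library was left out, and at a threshold of 0.01 its value of 1.39 did not pass. The number of changed genes was 11087, between 8850 and 10722 with 1 library left out, and 5798 with a log2 fold change of at least 1. With scaling by library size alone 47.6% of the changed genes were higher, against 52.6%. No pairing by replicate number was seen in the values. Deviations of same-numbered libraries from their group means correlated at 0.0055, -0.055 and -0.105, and no SbGhd7 OE library correlated best with its own number. Whether same-numbered libraries were grown, harvested or prepared together was not tested. With a replicate block 9848 genes changed, C4H had 3.92, Sobic.004G220300 -0.06 and the PAL sum 1.51. The causes were not tested. The lowest counts here, 15 to 68 per control library, limit the precision of the last 3 PAL copies.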

Other observations

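The 5 gene models on either side of the PAL cluster, in the order of their identifiers, were read beside it. Of these 10, 5 had enough counts to test and 3 had no count in any library. Of the 5 tested, 4 were called higher in SbGhd7 OE, none was called lower, and 1 did not pass the edgeR test, while 28.0% of all tested genes were called higher. Their log2 fold changes ran from -0.43 to 3.17. The value of 3.17 was that of Sobic.004G219800, with 30, 17 and 26 counts in SbGhd7 OE and 9, 0 and 0 in empty vector. It passed the filter only through the SbGhd7 OE libraries, so its call is no support for a rise. The other calls were 1.79, 0.53 and 0.37 on the log2 scale. Sobic.004G220200, too low to test, had 3, 3 and 7 counts in SbGhd7 OE and 7, 4 and 13 in empty vector. These few genes do not show a rise of the region.

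The tested gene most like C4H across the 6 libraries was Sobic.003G386000 (Pearson r of log2 CPM 0.9999). It had 122.8, 124.4 and 123.6 CPM in SbGhd7 OE and 21.4, 20.003 and 20.6 CPM in empty vector. The gene most like the PAL sum was Sobic.003G024400 (Pearson r 0.996), with 48.4, 70.4 and 42.1 CPM in SbGhd7 OE and 8.73, 9.03 and 31.1 CPM in empty vector. Like the PAL sum, it was highest among the controls in empty vector replicate 3. These r values were picked as the highest of all tested genes over libraries that fall into 2 groups, so they describe the match and carry no test.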
